A study of Macaca fascicularis and Macaca mulatta with 24 samples.

Results

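The comparison is between cortex of the ischemic right hemisphere and cortex of the non-ischemic left hemisphere in macaques that received TatNR2B9c and were sampled 6 h after a stroke. It rests on 6 of the 24 arrays of the series, 3 from each side, chosen by their titles. Cynomolgus macaques had the right middle cerebral artery occluded and were given an intravenous dose of TatNR2B9c, 2.6 mg/kg, 5 min later, with 3 animals in the group. The other groups used here carried the same occlusion and were sampled from both sides in the same way: a placebo group at 6 h and a TatNR2B9c group at 1 h, each of 3 animals. A placebo group at 1 h, also of 3 animals, entered the fit and the ranges over other groups but was not compared. Right and left arrays with the same number in their titles were taken as the same animal. No animal without an occlusion enters the comparison, so the left cortex is the side opposite the occlusion in a brain that had a stroke and received the peptide.

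TatNR2B9c joins the C-terminal end of the NMDA receptor subunit NR2B (gene GRIN2B) to the cell-entry sequence of the HIV protein Tat. It uncouples NMDA receptors from the scaffold protein PSD-95 (gene DLG4) and so from neuronal nitric oxide synthase (gene NOS1), which turns excess calcium entry into nitric oxide. Ischemic cortex is known in general for the induction of immediate early genes, heat shock proteins, targets of hypoxia and inflammatory cytokines within hours, and for the later loss of neuronal and glial RNA.

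Each level is the log2 ratio of the sample (Cy5) over a common reference RNA (Cy3) on 1 array, and each difference is the right level minus the left level of 1 animal, also on the log2 scale. All 6 arrays carried neuronal signal, as cortex does. Of 37 neuron markers measured, 36 were well above background on all 6 arrays, and the median level of the list lay between 2.07 and 3.73 above the reference. The oligodendrocyte and myelin markers had median levels from -0.03 to 1.21, and 20 of the 30 measured were well above background on all 6 arrays. The arrays differed in sensitivity, and their number limits the precision. Between 53% and 97.7% of probes were well above background in Cy5, highest on the left array of animal 1 and lowest on the left array of animal 3. The left array of animal 1 stood apart: its correlation with the other 5 arrays over all genes was 0.826 to 0.854, against 0.899 or more among those 5, and it held the highest or the lowest level of the 6 arrays for 60% of genes. The sides are those the labels give. The stress genes ADM, HSPA1A, DNAJB1, HMOX1, FOS and ATF3 were higher on the arrays labelled left, the non-ischemic side, in animals 1 and 3. Whole stress lists did not all run this way. Higher on the right in animals 1 and 3 were 12 and 8 of 27 heat shock genes and 15 and 3 of 44 immediate early genes. The counts were 26 and 11 of 40 hypoxia and glycolysis genes, and 18 and 6 of 41 inflammatory genes. Whether the side labels match the tissue was not tested.

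No gene passed the test between right and left cortex. Of 15769 genes tested with limma, with the animal as a block and Benjamini-Hochberg adjustment, none passed an adjusted p of 0.05 in either direction (0% higher, 0% lower), and the lowest adjusted p was 0.902. At an unadjusted p under 0.05 there were 299 genes higher on the right (1.9%) and 192 lower (1.22%), or 3.11% together. That split turned with the centring: with each array centred on its median in place of loess, 9 were higher and 56 lower. A difference of the same sign in all 3 animals was found for 1420 genes higher on the right (9.01%) and 1043 lower (6.62%). With 3 animals an exact paired test of 1 value cannot go below p = 0.25, and an exact test of 3 against 3 cannot go below 0.1, so no single value was tested on its own.

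The animals did not share a direction. Across genes, which are not independent replicates, the right-minus-left differences of animals 1 and 2 correlated at -0.28, those of animals 2 and 3 at -0.45 and those of animals 1 and 3 at 0.13. These values depended on the processing. With other normalisations they ranged from -0.38 to -0.1, from -0.5 to -0.07 and from 0 to 0.22, in the same order. The -0.07 of animals 2 and 3 was in Cy5 alone. For 38.2% of genes animals 1 and 3 had differences of one sign and animal 2 the other, against 19.3% for which animal 1 was the odd one and 26.9% for which animal 3 was. The SD of the differences over genes was 0.76 in animal 1, 0.28 in animal 2 and 0.37 in animal 3. Animals 1 and 2 shared a slide and a scan day, and animal 3 was on another slide scanned on another day, with both sides of an animal on the same slide each time.

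**Figure D1:**
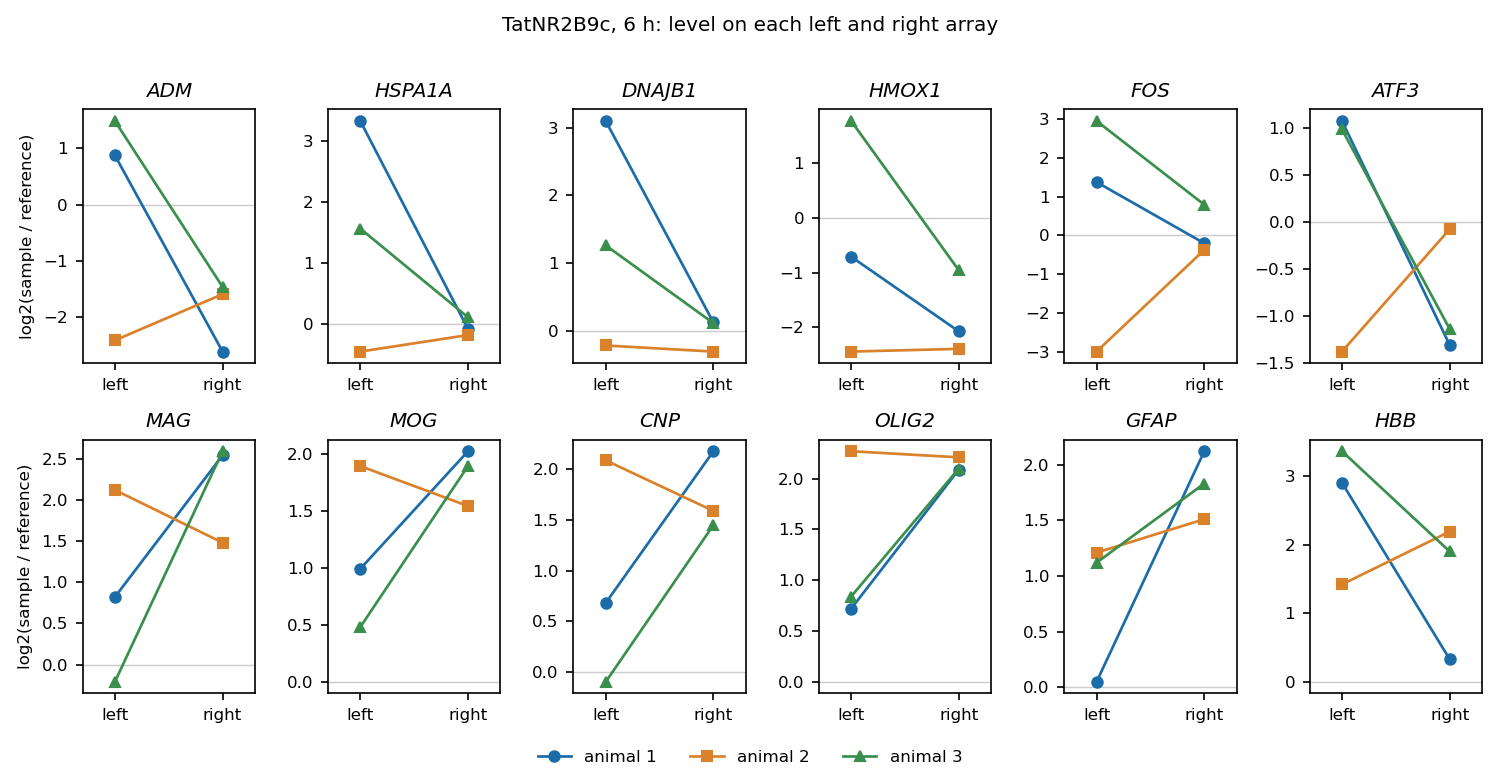
Level of 12 genes (y axis, log2 of sample over reference) on the left and right array of each of the 3 animals given TatNR2B9c and sampled at 6 h; each line joins the arrays of 1 animal, and the y axes differ between genes. The stress genes of the upper row were higher on the left arrays of animals 1 and 3 than on their right arrays, whereas animal 2 ran the other way or was flat. MAG, MOG, CNP and OLIG2 showed the mirror image.

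The stress genes ADM, HSPA1A, DNAJB1 and HMOX1 were among the 10 genes with the lowest mean differences, and myelin genes were among the 10 with the highest. The lowest 10 also held ANKRD1, CLRN3, CRB3, ST14 and TTN, whose differences came mostly from animal 1 (all named after their values were seen). ANKRD1, an ankyrin repeat protein known from muscle, differed by -4.06, 0.11 and -0.46. It was at 0.24 on the left array of animal 1 and between -3.82 and -2.16 on the other arrays. In animal 1 low genes in general were lower on the right: those with a mean level under -1 on the arrays of the other 2 animals had a median difference of -0.32. ADM, which encodes the vasodilator peptide adrenomedullin and is a target of hypoxia, had the lowest mean of all genes with a symbol, and MAG, which encodes myelin-associated glycoprotein, had the highest (ranked by mean difference after the values were seen). The probes that read 3 genes of these groups are given here by their first 30 bases of 60, 5′ to 3′ as the array files hold them, because a probe designed on the rhesus genome read cynomolgus RNA. Their rheMac2 positions, per the array files, are chr14:61646945-61647004 for ADM, chr19:14227499-14227558 for DNAJB1 and chr3:13527171-13527230 for OLIG2. The exon or intron at these positions is not given in the sources used here.
ADM: ggaagaaggaaacaccaagtctctgtataa
DNAJB1: aacatgagaccaaagtgtgtgacttgtcaa
OLIG2: gtgtaacacccttcctctgatcgcaccgac

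ADM levels were 0.88, -2.41 and 1.49 on the left arrays of animals 1, 2 and 3 and -2.61, -1.59 and -1.46 on the right arrays. The left arrays of animals 1 and 3 were far above the rest, and the left array of animal 2 lay within the range of the right arrays, so the sides overlapped. The difference was -1.87 ± 2.35 (SD, n = 3), with an SE of 1.13 and an adjusted p of 0.902 in limma, and it was lower on the right in 2 of 3 animals. Leaving out animal 2 moved it to -3.22 and leaving out animal 1 to -1.07. With arrays scaled to equal spread animal 1 differed by -2.25, beside -3.48, and the mean was -1.61. On the 9 left arrays of the other groups ADM ranged from -3.33 to 0.87. The left array of animal 3 lay above that range and that of animal 1 at its upper end, level with the highest. The 3 right arrays lay within the range of the other right arrays. For HSPA1A, DNAJB1 and HMOX1, 1 of the 3 left arrays exceeded the 9 left arrays of the other groups.

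HSPA1A and DNAJB1 ran the same way, which not every heat shock gene did. HSPA1A, the stress-inducible cytosolic HSP70, had levels of 3.32, -0.45 and 1.56 on the left and -0.08, -0.18 and 0.11 on the right (animals 1, 2 and 3). Its right levels sat close together near the reference, with an SD of 0.15, while the left levels spread from below to far above them, with an SD of 1.88. DNAJB1, the HSP40 co-chaperone induced with HSP70, was at 3.1, -0.22 and 1.26 on the left and at 0.12, -0.31 and 0.11 on the right. The mean difference was -1.52 ± 1.84 for HSPA1A and -1.4 ± 1.46 for DNAJB1 (SD, n = 3), with an adjusted p of 0.902 for each in limma. Without animal 1 these were -0.59 and -0.62. HSPA1A has a near-identical copy, HSPA1B, whose RNA the probe may also read. HSPH1, an HSP110 that acts with HSP70, differed by -1.33, 0.3 and -1.09, and HSPD1, the mitochondrial HSP60, by -1.16, -0.17 and -0.71. HSPA8, the constitutive cytosolic HSP70, differed by -0.56, 0.05 and -1.24, but a further probe of it by 0.5, 0.1 and -1.21. The small heat shock protein HSPB1 differed by -1.7, -0.1 and 0.6.

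Over the whole list of heat shock proteins and chaperones, 8 of 27 measured genes were above 0 and the median difference was -0.11, beside 61% above 0 and a median of 0.06 over all genes tested. The medians were -0.18, 0.05 and -0.34 in animals 1, 2 and 3. No member passed the adjusted test, 2 had an unadjusted p under 0.05, both lower on the right (background 1.22%), and 12 had animal 2 opposite to animals 1 and 3 (background 38.2%). The list median turned to 0.05 without animal 3.

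Immediate early genes, the transcription factors and regulators that neurons switch on within minutes of activity or injury, were below 0 for 37 of 44 measured genes, with a median of -0.24. The medians were -0.18 in animal 1, 0.23 in animal 2 and -0.93 in animal 3, and 23 of the 44 had animal 2 opposite to the others. None had an unadjusted p under 0.05. FOS, the best known of them, was at 1.37, -2.98 and 2.94 on the left and at -0.2, -0.37 and 0.79 on the right. Its lowest and its highest level of the 6 arrays were both on the left side, and the differences of -1.57, 2.61 and -2.16 left a mean of -0.37 ± 2.6 (SD, n = 3). ATF3, a stress-induced repressor, differed by -2.38, 1.3 and -2.12. EGR1, an activity-induced transcription factor, differed by 0.22, 0.65 and -0.33, NR4A1, an orphan nuclear receptor, by -0.73, 0.58 and -1.72 (a further probe had a mean of 0.22), and ARC, which acts at active synapses, by 0.86, -0.33 and -0.55, so not every gene of the list kept to the pattern of FOS. Within the slide of animals 1 and 2 the list median was 0.02, and within that of animal 3 it was -0.93.

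HMOX1, the heme-degrading and oxidant-induced enzyme, was at -0.71, -2.45 and 1.78 on the left and at -2.08, -2.4 and -0.96 on the right. Animals 1 and 3 were again lower on the right and animal 2 was flat, with a mean difference of -1.35 ± 1.4 (SD, n = 3). With arrays scaled to equal spread animal 1 differed by -0.69, beside -1.37, and the mean was -1.22. The left array of animal 1 was still below the reference and close to the right array of animal 3. The rest of the hypoxia and glycolysis list did not follow ADM and HMOX1: 22 of 40 measured genes were above 0, with a median of 0.03. PFKP, a glycolytic phosphofructokinase, was higher on the right in all 3 animals, by 0.93, 0.26 and 0.19. Antioxidant genes and metallothioneins had a median of 0.02 with 17 of 31 above 0, and the unfolded protein response a median of 0 with 15 of 29 above 0.

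Inflammatory genes split by animal as well. Of 41 measured cytokines and NF-kB targets, 18 were above 0 in animal 1, 34 in animal 2 and 6 in animal 3, and the medians were -0.04, 0.22 and -0.64. IL6 was at 0.31, -0.47 and 3.57 on the left and at 0.91, 1.22 and 0.62 on the right, so the highest level by far was on the left array of animal 3. PTGS2, the inducible cyclooxygenase, showed the same peak, with 4.88 on the left array of animal 3 against 0.44 to 2.95 on the other 5 arrays. IL1B differed by 1.6, 1.14 and -0.93, and TLR4, a receptor for bacterial and damage signals, by -0.98, 0.09 and -0.93. IL1A was not well above background on any right array and was so on 2 of 3 left arrays. NPAS4, VEGFA, TNF and CCL2 were not analysed here.

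CCL8, a chemokine that attracts monocytes, ran differently from most of the inflammatory list. Its levels were 0.62, -0.15 and 0.12 on the left and 1.93, 0.16 and 1.76 on the right. The right arrays of animals 1 and 3 were high and that of animal 2 lay among the left arrays, so the sides overlapped, although each animal was higher on the right. The difference was 1.09 ± 0.69 (SD, n = 3), with an SE of 0.36, an unadjusted p of 0.0115 in limma and an adjusted p of 0.902. In Cy5 alone animal 1 turned to -1.45, and the mean was then 0.56.

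Some genes of blood cells split by animal in the same way as ADM and HSPA1A. HBB, the beta chain of adult hemoglobin, was at 2.9, 1.42 and 3.36 on the left and at 0.33, 2.19 and 1.9 on the right. The differences were -2.57, 0.77 and -1.46, so animals 1 and 3 were lower on the right and animal 2 was higher. S100A8, a neutrophil protein, differed by -1.36, 0.61 and -1.5, and MMP9, a gelatinase stored in neutrophils, by -2.94, 0.07 and -1. With arrays scaled to equal spread animal 1 was at -2.06 for HBB and at -0.83 for S100A8. Of the 21 neutrophil and red cell markers measured, 3 were above 0 and the median was -0.23, with medians of -0.56, 0.04 and -0.23 by animal; 13 were well above background on all 6 arrays, and the median level of the list lay between -0.37 and 0.23 on the left arrays and between -0.47 and 0.1 on the right arrays. The part of blood RNA in the other differences was not tested. Endothelial and mural cell markers had a median of 0.02, and microglia and macrophage markers one of -0.15 that turned to 0.02 in Cy5 alone.

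Myelin genes were the mirror image. Of 30 oligodendrocyte and myelin markers measured, 28 were above 0 and the median was 0.6, the highest of the 22 lists. The medians were 0.91 in animal 1, -0.3 in animal 2 and 1.27 in animal 3, and 27 of the 30 had animal 2 opposite to animals 1 and 3 (background 38.2%). Of these markers 6 had an unadjusted p under 0.05, all higher on the right (background 1.9%), and none passed the adjusted test. In bulk tissue, fewer cells of a type and less RNA per cell cannot be told apart. The median stayed between 0.49 and 0.75 under the other normalisations, filters and weights tried. It was 0.45 without animal 1, 1.04 without animal 2 and 0.24 without animal 3. The share of animal 1 was less steady: with arrays scaled to equal spread its median was 0.43, beside 0.91, while animal 3 had 1.14 and animal 2 -0.14.

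MAG was at 0.82, 2.12 and -0.21 on the left and at 2.54, 1.48 and 2.59 on the right. MOG, a glycoprotein of the outer myelin surface, was at 0.99, 1.89 and 0.48 on the left and at 2.02, 1.54 and 1.89 on the right. In both genes the left array of animal 3 was the lowest of the 6 and the sides overlapped through animal 2. The mean differences were 1.29 ± 1.76 for MAG and 0.7 ± 0.93 for MOG (SD, n = 3), with an adjusted p of 0.902 for both in limma. OLIG2, the transcription factor of the oligodendrocyte lineage, was at 0.72, 2.27 and 0.84 on the left and at 2.09, 2.21 and 2.1 on the right, so the right arrays lay close together, with an SD of 0.07, while the left arrays spread with an SD of 0.86. CNP, a myelin enzyme, differed by 1.5, -0.49 and 1.55, and in Cy5 alone animal 1 turned to -0.15. MBP, the basic protein of myelin, differed by 0.99, -0.97 and 1.79, whereas a further probe of it had a mean of -0.03. The genes MOBP, HAPLN2 and BCAS1 were next to MAG in the ranking by mean (chosen after their values were seen), at 1.15, 1.26 and 1.13.

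**Figure D2:**
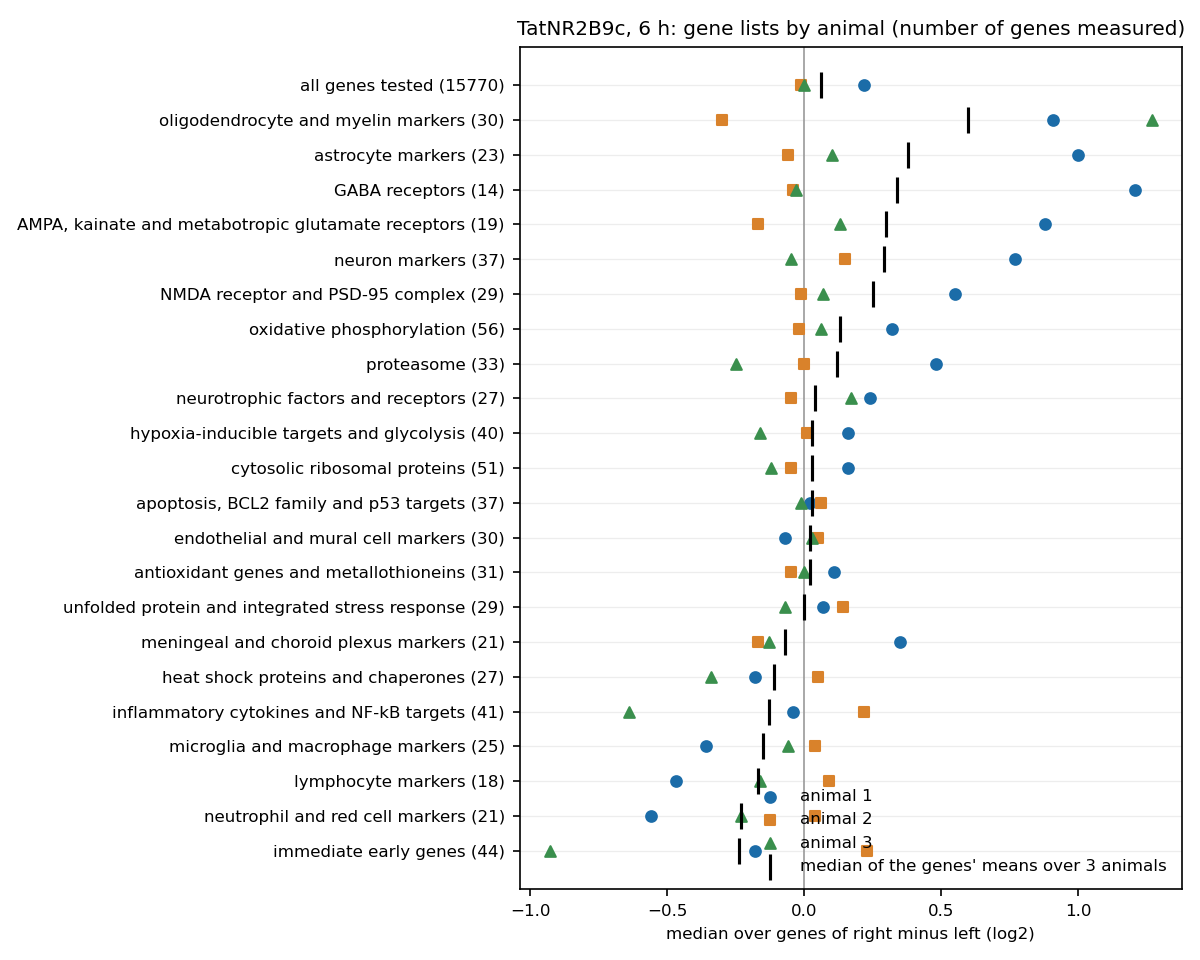
Median right-minus-left difference (x axis, log2) over the measured genes of each of 22 gene lists and of all genes tested (y axis, with the number of genes), for each animal given TatNR2B9c and sampled at 6 h; the black bar is the median of the genes' means over the 3 animals. Animal 2 lies on the other side of 0 from animals 1 and 3 for the oligodendrocyte and myelin markers (-0.3 against 0.91 and 1.27) and for the immediate early genes (0.23 against -0.18 and -0.93), and the neuronal and receptor lists are high in animal 1.

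No gene of the complex that TatNR2B9c acts on passed the test between the sides. Of 29 measured genes of the NMDA receptor and PSD-95 complex, 24 were above 0, 9 were higher on the right in all 3 animals (background 9.01%) and none was lower in all 3. The median was 0.25, made up of 0.55 in animal 1, -0.01 in animal 2 and 0.07 in animal 3, and it was 0.04 without animal 1 and 0.09 with arrays scaled to equal spread. GRIN2B was at 1.09, 2.94 and 0.6 on the left and at 2.05, 3.19 and 0.73 on the right. The difference was 0.45 ± 0.45 (SD, n = 3), and 0.19 without animal 1. With the processed signals of the extraction software the mean was 1.22, from 2.43, 1.27 and -0.03. GRIN1, the obligatory subunit, differed by 0.42, 0.01 and 0.43, GRIN2A by 1.46, -0.35 and -0.1, and DLG4 by 0.32, 0.59 and -0.13.

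NOS1 was at -0.15, 0.26 and 0.14 on the left and at -0.09, 0.47 and 0.53 on the right, a difference of 0.22 ± 0.17 (SD, n = 3).

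Other neuronal lists leaned on animal 1. Neuron markers had a median of 0.29 with 30 of 37 above 0, AMPA, kainate and metabotropic glutamate receptors 0.3 with 17 of 19, and GABA receptors 0.34 with 13 of 14. By animal the medians were 0.77, 0.15 and -0.05 for neuron markers and 1.21, -0.04 and -0.03 for GABA receptors. Without animal 1 the neuron markers and the AMPA, kainate and metabotropic receptors had medians of 0.03 and the GABA receptors one of -0.04, and with arrays scaled to equal spread the neuron median was 0.02. In animal 1 the difference followed the level of the gene: genes with a mean level over 1 on the arrays of the other 2 animals had a median difference of 0.98, those between -1 and 1 one of 0.16, and those under -1 one of -0.32. In animals 2 and 3 the same medians lay between -0.1 and 0.08. The log2 ratios of the left array of animal 1 had an SD of 1.08, against 1.39 on its right array. STMN3, a neuronal microtubule regulator, was higher on the right in each animal, by 1.15, 0.28 and 0.35, whereas SNAP25, a synaptic vesicle fusion protein, differed by 1.46, 0.22 and -0.7.

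Among glial genes, GFAP, the intermediate filament of astrocytes, did not overlap between the sides. It was at 0.05, 1.21 and 1.12 on the left and at 2.12, 1.51 and 1.83 on the right. Such a separation with the right side above was found for 178 of all genes (1.13%) and with the right side below for 191 (1.21%). All 3 animals were higher on the right and animal 1 made up most of the difference of 1.03 ± 0.93 (SD, n = 3), which was 0.5 without that animal. The adjusted p was 0.902 in limma. The 23 astrocyte markers had medians of 1, -0.06 and 0.1 by animal, and one of 0.02 without animal 1. AQP4, the water channel of astrocyte endfeet, differed by 1.17, 0.52 and -0.04.

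Genes of growth, death and upkeep gave small medians. Neurotrophic factors and receptors had 19 of 27 measured genes above 0 and a median of 0.04, beside 61% above 0 and a median of 0.06 over all genes. BDNF, a neurotrophin induced by activity, was at 0.68, 0.86 and 2.02 on the left and at 1.77, 0.86 and 1 on the right, so its highest level was once more on the left array of animal 3. FGF9, a growth factor made by neurons, was higher on the right in each animal, by 0.55, 0.27 and 0.25. Its sides did not overlap, as for 1.13% of all genes, and it was the 1 gene of the list with this. FGF2, a growth factor of astrocytes, differed by 1.52, -0.11 and 0.6, lower on the right in animal 2, and its sides overlapped. Of 37 genes of apoptosis, the BCL2 family and p53 targets 23 were above 0, with a median of 0.03. HRK, a pro-apoptotic BH3 protein of neurons, differed by 1.62, -0.01 and 0.73, and its mean of 0.78 became -0.49 in Cy5 alone. BIK was well above background on 1 left array and on no right array.

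Oxidative phosphorylation genes had 39 of 56 above 0 and a median of 0.13, with 0.32, -0.02 and 0.06 by animal. Proteasome genes had 24 of 33 above 0 and a median of 0.12 that became -0.01 with array weights. Cytosolic ribosomal proteins had a median of 0.03, which was 0.28 with median centring and -0.06 with array weights. Lymphocyte markers had 6 of 18 above 0 and a median of -0.17, which turned to 0.02 over the probes well above background in both colours on all 6 arrays, and meningeal and choroid plexus markers had 10 of 21 above 0 and a median of -0.07. No member of these lists passed the adjusted test.

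**Figure D3:**
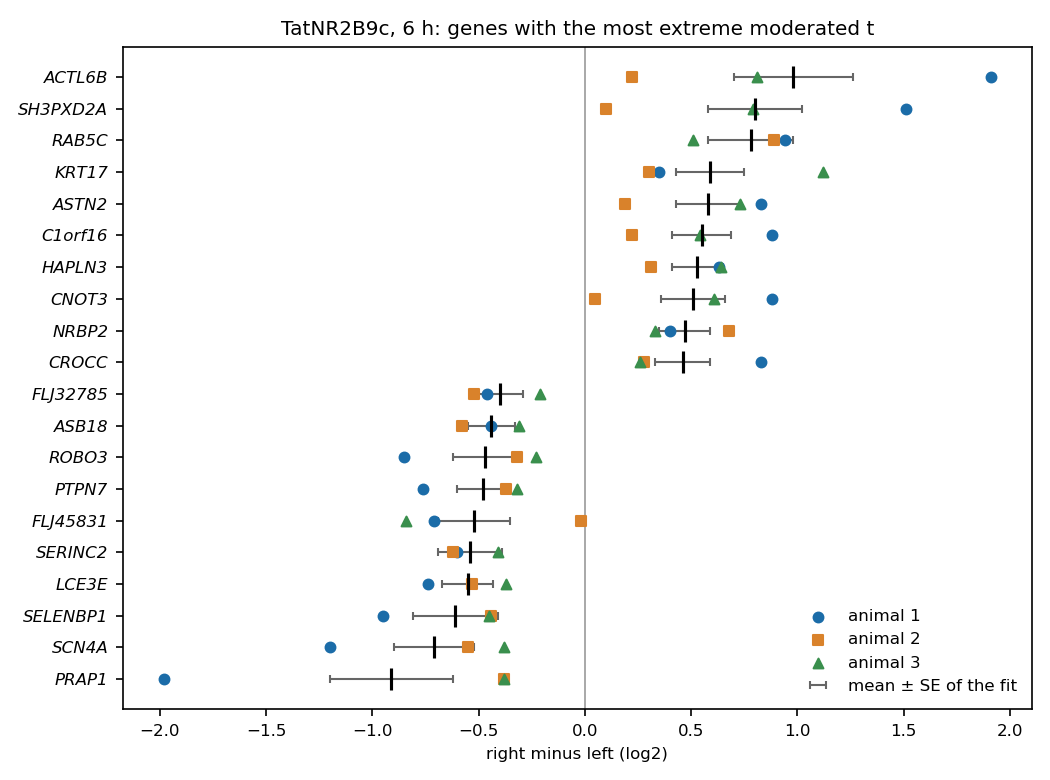
Right-minus-left difference (x axis, log2) of the 10 genes with the highest and the 10 with the lowest moderated t (y axis): coloured points are the 3 animals given TatNR2B9c and sampled at 6 h, black bars the mean and the whiskers its SE in the limma fit over all arrays. Every one of the 20 genes has the same sign in all 3 animals, with means from 0.46 to 0.98 in the upper group and from -0.91 to -0.4 in the lower group, and none passed the adjusted test. The choice by moderated t favours genes of one sign in all 3 animals, so the shared sign is no result. Over all genes 9.01% were higher and 6.62% lower in all 3.

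The genes with the highest moderated t were others than those with the largest mean differences. HAPLN3, a link protein of the hyaluronan matrix, had the highest moderated t. It was at 0.44, 0.45 and 0.2 on the left and at 1.07, 0.77 and 0.84 on the right, without overlap (background 1.13%). The difference was 0.53 ± 0.19 (SD, n = 3) with an SE of 0.12 and an unadjusted p of 0.00132 in limma. With the processed signals of the extraction software animal 2 turned to -0.2, and without background subtraction to -0.17. In Cy5 alone animal 1 turned to -0.51, and the mean was then 0.23. ASTN2, an astrotactin of neuronal migration, differed by 0.83, 0.19 and 0.73, and a further probe of it by 1.14, -0.01 and 0.78. RAB5C, a small GTPase of early endosomes, was at -1.73, -0.57 and -0.87 on the left and at -0.79, 0.31 and -0.36 on the right, a difference of 0.78 ± 0.23 (SD, n = 3). The sides overlapped because the animals differed among themselves, yet each animal was higher on the right by at least 0.51. In Cy5 alone animal 2 turned to -0.17. ACTL6B, the neuronal actin-like subunit of BAF chromatin remodelling, differed by 1.91, 0.22 and 0.81, and its mean of 0.98 became 0.13 in Cy5 alone.

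On the lower side 1 of the 10 leading genes was well above background on all 6 arrays. LCE3E, a gene of the skin's cornified envelope, had the lowest moderated t, at 0.41, 1.04 and 0.47 on the left and -0.34, 0.51 and 0.1 on the right, and its mean of -0.55 became 0 with the processed signals. ASB18 was at 0.25, 0.33 and -0.02 on the left and at -0.19, -0.26 and -0.33 on the right, without overlap (1.21% of all genes), and was well above background on 2 of 3 arrays of each side. Both are given as measured, since neither is a known gene of cortex. PTPN7, a phosphatase of blood cells, and SCN4A, the sodium channel of skeletal muscle, differed by -0.48 and -0.71 and were also well above background on 2 of 3 arrays of each side. SELENBP1 was not well above background on any right array and was so on 1 of 3 left arrays.

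The comparison of sides was then set against the same comparison in the placebo group at 6 h, to ask where the treated animals differed, and against the TatNR2B9c group at 1 h, to ask how it changed with time. Neither contrast passed an adjusted p of 0.05 for any gene in limma. Against placebo at 6 h there were 416 genes with a higher difference (2.64%) and 236 with a lower one (1.5%) at an unadjusted p under 0.05, or 4.13% together. Against TatNR2B9c at 1 h there were 386 higher (2.45%) and 39 lower (0.247%), or 2.7% together, a split that became 3 against 15 with median centring. The treatment groups were extracted with different versions of the scanner software per the file headers, and the part of this in the contrasts was not tested. In each of the 3 placebo animals at 6 h the left and right arrays were on different slides, and in 1 of the 3 they shared a scan day, whereas in the TatNR2B9c groups both sides of every animal shared a slide. The part of the slides in the contrast with placebo was also not tested.

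FOS differed in its pattern between the times. At 1 h it was higher on the right in all 3 animals, by 2.62, 1.22 and 2.3, and at 6 h by -1.57, 2.61 and -2.16. The contrast was -2.42 with an SE of 1.83 and an adjusted p of 1 in limma. In placebo at 6 h FOS differed by -1.29, -5.42 and 3.03, so the animals of that group also disagreed with each other. ADM in placebo differed by -1.82, -3.87 and 3.05, and HSPA1A by -0.56, -3.36 and 1. HMOX1 was near 0 or higher on the right in the 3 placebo animals, by 0.05, 0.57 and 0.66; the contrast was -1.78 with an SE of 0.75 and an adjusted p of 0.884 in limma. With TatNR2B9c at 1 h it differed by -1.3, -1.4 and 0.15.

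With TatNR2B9c the mean difference was above 0 for 27 of the 30 myelin genes at 1 h and for 28 at 6 h, but in animal 2 of each group for 13 at 1 h and for 3 at 6 h. MAG differed by 0.37, 0.09 and 1.29 at 1 h, beside 1.72, -0.64 and 2.8 at 6 h, and by 0.31, -0.13 and 0.17 in placebo at 6 h. The list median was 0.41 at 1 h, with 0.53, -0.09 and 0.63 by animal, and 0.05 in placebo. CCL8 differed by 1.84, 1.5 and -0.31 in placebo at 6 h and by -0.11, 0.21 and -0.12 at 1 h, so it was above 0 in 5 of the 6 animals sampled at 6 h; its contrast with 1 h was 1.1 with an SE of 0.51 and an adjusted p of 1 in limma.

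**Figure D4:**
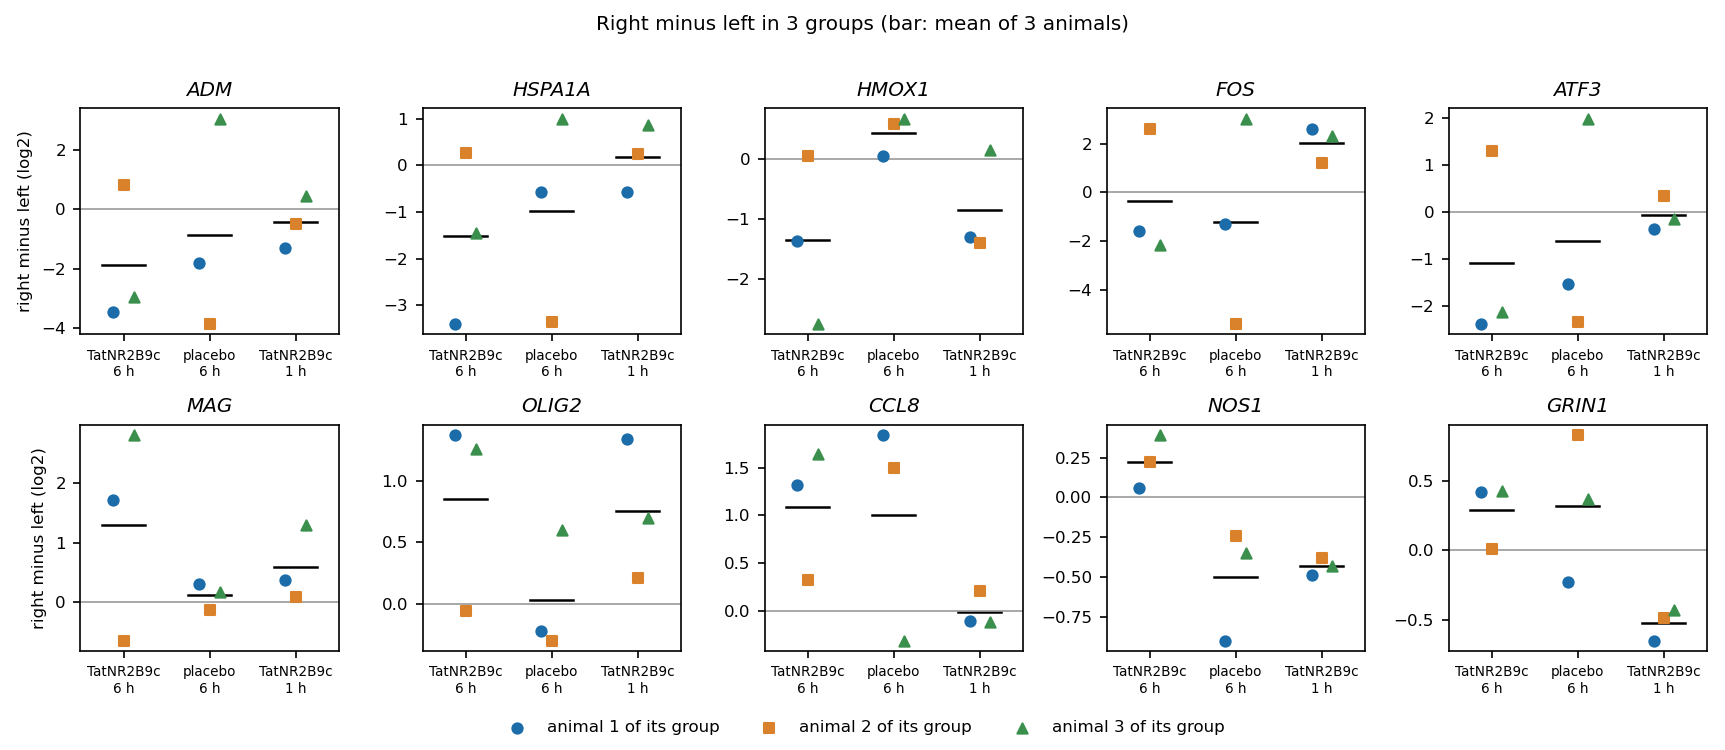
Right-minus-left difference (y axis, log2) of 10 genes in each of 3 animals given TatNR2B9c and sampled at 6 h, given placebo and sampled at 6 h, or given TatNR2B9c and sampled at 1 h (x axis); bars are means, animals of the 3 groups are different animals, and the y axes differ between genes. FOS is above 0 in all 3 animals at 1 h and on both sides of 0 at 6 h, and NOS1 is above 0 in all 3 animals given TatNR2B9c at 6 h and below 0 in the other 6.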

How the data were processed

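RNA of cortical biopsies was hybridised on 2-colour Agilent arrays, 1 array per sample, with the sample in Cy5 and a common reference in Cy3 and no dye swap, per the labels. The authors extracted the TatNR2B9c arrays with Agilent Feature Extraction 10.7.3.1, per the submitters' processing notes. The deposited intensities are each spot's mean brightness and local background, on a linear scale, per the file headers. Per the file headers, the deposited log10 ratios set the software's processed Cy5 signal over that of Cy3; the series matrix repeats them. The deposited flags of 0 or 1 mark spots well above background, saturated or not uniform, per the file headers.

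Background was corrected with normexp (offset 50) and loess was run on the log2 ratios of each array (limma 3.58.1, R 4.3.3). Controls and spots not uniform were left out and spots of a probe averaged. Of 20217 probes, 17226 were well above background in Cy5 on all 3 arrays of at least 1 of 8 groups; the brightest probe read each of 15770 genes. Names are those of the array files: 6627 probes have a newest name and 10802 only an older one, and 1316 of 6048 probes with both differ. Of 10 named genes with a further probe, 8 had all probes of the same sign. The fit used all 24 arrays with 12 animals as block; it was tested on simulated data. Pairing rests on the number in the titles: right and left deviations of a number correlated at -0.21, 0.39 and 0.52, at 0.25, 0.28 and 0.44 in TatNR2B9c at 1 h, at -0.2, -0.11 and -0.09 in placebo at 6 h and at -0.71, 0.69 and -0.29 in placebo at 1 h. The text names the 10 highest and 10 lowest moderated t, 3 members of each of 22 lists by moderated t, and a fixed set of 33 genes. Members and lists were chosen with earlier results of these data known. P-values rest on the spread between animals pooled over the 12 animals of all groups and moderated across genes, not on 3 animals alone. A few named genes are not reported here.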

Additional observations from a re-analysis of the deposited data

Results flagged for a closer look

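In 10 of the 110 named genes all 3 animals given TatNR2B9c at 6 h had a right-minus-left difference of one sign and all 3 animals of another group had the opposite sign. Among all genes 1.71% met this against placebo at 6 h and 2.32% against TatNR2B9c at 1 h, beside 5.45% and 4.55% of the named genes. Of the 10, 8 were named for their moderated t in this comparison, which favours genes of one sign in all 3 animals, so their share is no result. Signs alone chose them, and none passed the contrast in limma (adjusted p 0.884 against placebo at 6 h and 1 against TatNR2B9c at 1 h). NOS1, the enzyme downstream of PSD-95, differed by 0.06, 0.22 and 0.39 here and by -0.9, -0.24 and -0.35 in placebo at 6 h, a gap of 0.72 on the log2 scale. Against 1 h, where NOS1 differed by -0.49, -0.38 and -0.43, the gap was 0.66. GRIN1, the obligatory NMDA receptor subunit, differed by 0.42, 0.01 and 0.43 here and by -0.65, -0.49 and -0.43 at 1 h, a gap of 0.81. Animal 2 was close to 0 for GRIN1, and both further probes of GRIN1 had animal 2 below 0, at -0.12 and -0.19. For NOS1 animal 1 was close to 0.

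Against placebo at 6 h the gap was 0.69 for NRBP2, 0.75 for C1orf16 and 0.22 for RPL28, all higher on the right here. It was -1.01 for LUM and -0.57 for RET, both lower on the right here; a further probe of RET had animal 2 at 0.02. Against TatNR2B9c at 1 h the gap was 0.57 for CROCC, 0.48 for the sodium pump subunit gene ATP1B2 and 0.71 for the endothelial gene EMCN.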

How the results depend on the processing

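The count of genes past an adjusted p of 0.05 stayed at 0 for right against left in limma under every alternative run, including the fit with no replicate block, where 513 genes had an unadjusted p under 0.05 beside 491 in the paired fit. For right against left the count at an unadjusted p under 0.05 ranged from 65 (median centring) to 2176 (Cy5 alone); it was 73 with only the 6 arrays, 82 without animal 1, 215 with arrays scaled to equal spread, 260 with the processed signals, 191 with only probes well above background in both colours on all 6 arrays, 865 without animal 3 and 2174 without animal 2, whose lowest adjusted p was 0.0541. Against placebo at 6 h the adjusted count was 0 except without animal 2, so that leaving out each animal gave 0 to 1; the gene was GPR65, at -1.42, 0.89 and -1.28 here (named after its values were seen). Against TatNR2B9c at 1 h it was 0 throughout. At an unadjusted p under 0.05 the count against placebo was 652 and ranged from 63 (equal spread) to 2066 (without animal 2), and that against 1 h was 425 and ranged from 18 (median centring) to 1095 (without animal 2). The series matrix gave nearly the same values as the processed signals, at 259. Of 374 list medians under the alternatives 22 moved by more than the SD between animals, and of 2052 values of single genes 97 did. For single genes, leaving out 1 animal or the block cannot move the mean that far, so these counts do not measure stability. The list median kept its sign in 15 of 22 lists without animal 1, 20 without animal 2, 16 without animal 3 and 14 within the slide of animal 3. Within slides, the myelin median was 0.24 for animals 1 and 2 and 1.27 for animal 3. No gene was called with or without pairing by number, so the calls cannot show whether the pairing mattered.

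The main limits are 3 animals, side labels that were not tested against the tissue, no dye swap, unequal array sensitivity and gene names from the array's design.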
